A study of Mus musculus with 32 samples.

Results

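The 16 melanomas described here were chosen by 2 of their own transcripts, from 32 primary mouse melanomas in all. Each tumour was given a score, log2(TPM + 1) of Axl minus log2(TPM + 1) of Mitf, where TPM is a read count scaled for transcript length and library size. The 8 tumours with the highest score are called Axl-high and the 8 with the lowest are called Mitf-high. The remaining 16 lie in between. Because Axl and Mitf set the classes, their values by class are a description and carry no test. Apart from the comparison of Axl and Mitf by genotype, every p-value below concerns tumours that were sorted by 2 of their own RNAs. Such a p-value measures association with that sorting and not the effect of a treatment.

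All mice carried an NRASQ61K transgene under the tyrosinase (Tyr) promoter, which is active in melanocytes, 1 deleted copy of the tumour suppressor Cdkn2a, and floxed Cdh1, the E-cadherin gene. The labels divided the tumours into Ecad (written °/°, with no Cre) and ΔEcad, each with 8 males and 8 females. The label of the ΔEcad tumours writes Tyr::NRAS/° where the methods of the study give Tyr::CreA/°, a melanocyte Cre that deletes Cdh1. The study compared genotypes and sexes, and the classes used here cross those groups. No age was given for single tumours, and p-values measure only the spread between these tumours.

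AXL is a receptor tyrosine kinase of the TAM family, which TYRO3 and MERTK complete, and GAS6 is its ligand. MITF is the transcription factor that drives the melanocyte lineage and pigment genes such as Tyr and Dct. In cultured and tumour-derived melanoma cells, high AXL with low MITF is known as a dedifferentiated, invasive state, and high MITF as a differentiated one. AXL is also made by macrophages, fibroblasts and other cells of skin, which matters in RNA from whole tumours.

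Axl (ENSMUSG00000002602, chr7:25757273-25788705, minus strand, GRCm38) was at 48.0, 67.6 and 393.8 TPM in the Axl-high tumours (lowest, median and highest). It was at 4.82, 14.6 and 42.4 TPM in the Mitf-high tumours, so the classes did not overlap for Axl. Mitf (ENSMUSG00000035158, chr6:97807052-98021349, plus strand) was at 12.4, 37.6 and 73.7 TPM in the Axl-high tumours and at 30.4, 158.0 and 391.9 TPM in the Mitf-high tumours. The Mitf ranges overlapped. Ecad female 3 and ΔEcad male 1 held 30.4 and 42.7 TPM of Mitf, inside the Axl-high range, and were among the 8 lowest scores through Axl at 4.82 and 5.14 TPM. The name Mitf-high is therefore not borne out by Mitf itself in those 2 tumours, and stands here for a low score. Axl-high likewise stands for a high score: ΔEcad female 7, at 48.0 TPM of Axl, lay below the median of the middle tumours, 52.8 TPM, and was taken through its low Mitf of 35.5 TPM. The highest Mitf of the series, 590.5 TPM in Ecad female 2, came with Axl at 119.4 TPM and fell in the middle.

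The cuts ran through a continuous range of scores. ΔEcad female 7 was the last tumour taken as Axl-high at a score of 0.42, and ΔEcad female 1 was the first left out at 0.32. At the other end ΔEcad male 5 was taken at -2.43 and Ecad female 2 left out at -2.30. The highest score, 4.88 in ΔEcad male 7, stood far from the next, 1.72 in ΔEcad female 3. Over all 32 tumours the log2 values of Axl and Mitf gave r = -0.128 (Pearson) and rho = -0.205 (Spearman), with r = 0.05 without ΔEcad male 7, and r = -0.067 once the 2 tumours with the most extreme Mitf were left out. Within the labelled groups of 8 tumours, r ran from -0.747 in Ecad males and -0.332 and -0.273 in ΔEcad females and males to 0.621 in Ecad females. The 2 values of a tumour come from the same library, and these correlations are a description.

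**Figure D1:**
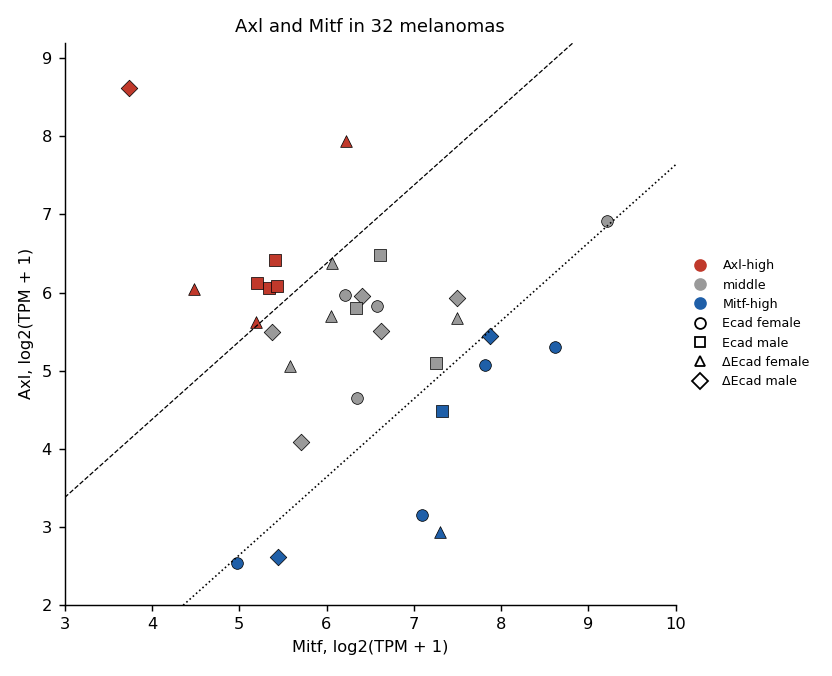
Axl against Mitf, both as log2(TPM + 1), in each of 32 tumours. Colour gives the class, shape the labelled group, and the dashed and dotted lines the scores that bound the Axl-high and the Mitf-high class. ΔEcad male 7 lies alone at top left, and 2 Mitf-high tumours lie at low Mitf with low Axl.

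Total counts were 30021348 to 48232383 in the Axl-high and 27897800 to 63923086 in the Mitf-high tumours. Several tumours stood apart before any comparison. ΔEcad male 7, value column 23 of the 32 in each table, lacked melanocytic RNA, with Sox10 at 0.49 and Dct at 4.98 TPM, both the lowest of the Axl-high class. ΔEcad female 3 held all 4 globin genes listed at 0 TPM and a summed macrophage marker level of 11.7 TPM, the lowest of its class. One middle tumour, ΔEcad male 2, had Xist at 6.41 TPM and 0 counts over 4 Y-linked genes, against its label. Counts of called genes are given with and without the tumours they include. Without ΔEcad female 3, 38 of the 39 named called genes stayed called, all but Col6a2.

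The classes crossed the study's labels. ΔEcad tumours made up 4 of 8 Axl-high and 3 of 8 Mitf-high tumours, and females 3 of 8 and 5 of 8. Neither difference in share passed (two-sided Fisher's exact test, p = 1.0 for genotype and p = 0.619 for sex, both 1.0 after Benjamini-Hochberg adjustment over 2 tests). By labelled group, the Axl-high class held 4 Ecad males, 3 ΔEcad females, 1 ΔEcad male and 0 Ecad females. The Mitf-high class held 4 Ecad females, 1 Ecad male, 1 ΔEcad female and 2 ΔEcad males. The 2 tests took genotype and sex singly and cannot see an imbalance in their combination. Class comparisons below with sex and genotype in the model added the 2 labels and did not hold the 4 labelled groups fixed.

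Axl and Mitf were also compared by genotype, which does not use the score. In females, Axl averaged 72.6 ± 73.0 TPM with ΔEcad against 43.1 ± 36.9 TPM with Ecad (mean ± SD, n = 8 each), and in males 83.4 ± 127.0 against 60.4 ± 23.3 TPM. The fold change of ΔEcad over Ecad was 0.69 on the log2 scale in females (SE 0.59, edgeR adjusted p = 0.66) and 0.47 in males (SE 0.59, edgeR adjusted p = 0.784). Without ΔEcad male 7 the male difference turned to -0.44 (edgeR adjusted p = 0.766), and without ΔEcad male 2 it was 0.61 (0.801). Mitf in females averaged 80.5 ± 56.9 TPM with ΔEcad against 202.5 ± 194.3 TPM with Ecad, a log2 difference of -1.26 that did not pass (SE 0.51, edgeR adjusted p = 0.196). In males Mitf was at 92.5 ± 76.2 and 80.7 ± 50.9 TPM, a log2 difference of 0.32 (SE 0.5, edgeR adjusted p = 0.837), or 0.37 without ΔEcad male 2 (0.866) and 0.49 without ΔEcad male 7 (0.709).

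Marker lists of other cell types differed in level between the classes, but few of their genes passed outside the Schwann list. Called were 2 of 7 fibroblast markers, and 0 of 8 keratinocyte, 0 of 8 macrophage, 0 of 6 skeletal muscle, 0 of 5 adipocyte and 0 of 6 melanocytic markers. So were 0 of 4 hair follicle, 0 of 5 dendritic and 0 of 6 T cell markers tested, all higher in sign. Among Schwann markers Mbp and Prx were called higher, with values given further below. Summed TPM of 8 keratinocyte markers was 9.44, 8028.3 and 39064.0 (lowest, median, highest) in the Axl-high and 5.93, 12.4 and 2582.4 in the Mitf-high tumours, with 8 of 8 markers higher in fold sign. Krt5, Krt14, Krt1 and Lor were listed at 0 TPM in at least 1 tumour of either class, and Krt5 was at 3 or fewer counts in 2 Axl-high and 4 Mitf-high tumours. Fibroblast markers summed to 1053.6, 2070.1 and 9189.7 TPM against 67.0, 272.0 and 4206.9 TPM, with 7 of 7 higher. Macrophage markers summed to 11.7, 1914.5 and 4687.6 TPM against 196.8, 467.0 and 1540.3 TPM, with 8 of 8 higher in sign, and Adgre1, Cd163, C1qa, C1qb and C1qc were listed at 0 TPM in ΔEcad female 3. Skeletal muscle markers summed to 10.1, 2754.9 and 23848.4 TPM against 3.1, 163.4 and 1317.7 TPM, and adipocyte markers to 6.5, 1200.7 and 5939.6 TPM against 8.41, 69.8 and 908.4 TPM. Melanocytic markers went the other way, at 19.1, 16673.6 and 37126.1 TPM against 19665.9, 38587.3 and 73595.0 TPM. In RNA from whole tumours, fewer cells of a type and less RNA per cell cannot be told apart. The part of these cells in each gene's difference was not tested beyond the models with marker scores given below.

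**Figure D2:**
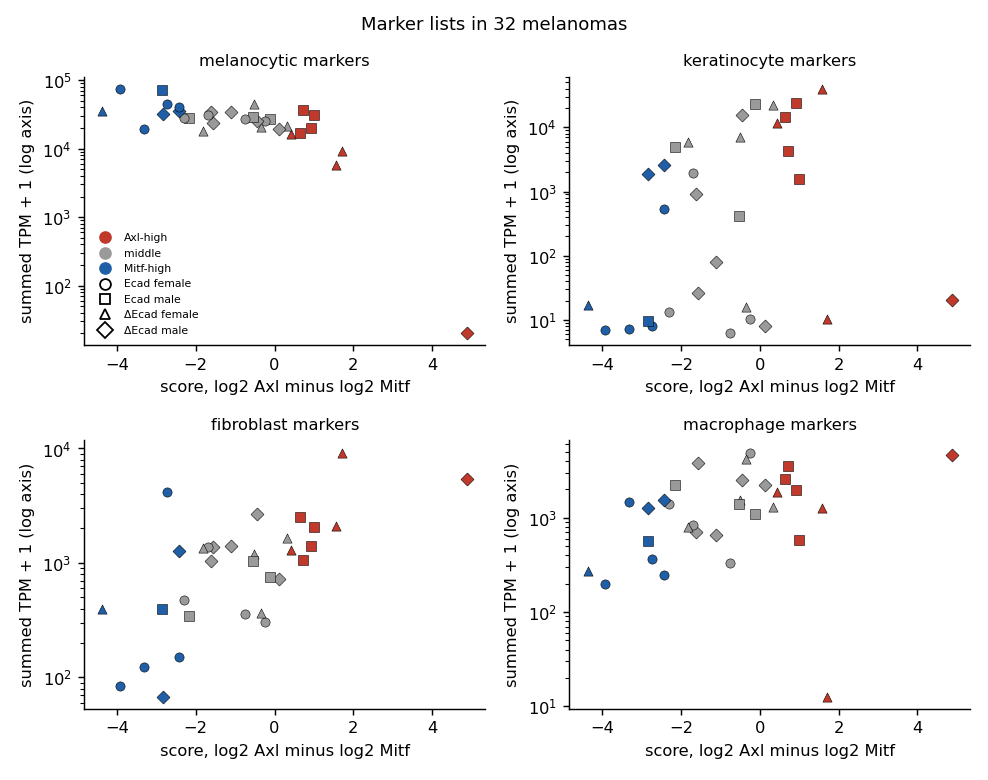
Summed TPM + 1 of the melanocytic, keratinocyte, fibroblast and macrophage marker lists (log axes) against the score in 32 tumours, with colour for class and shape for labelled group. Melanocytic markers fall to 19.1 TPM in ΔEcad male 7, keratinocyte markers spread over orders of magnitude in both classes, and all 8 Axl-high tumours hold 1053.6 TPM of fibroblast markers or more.

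Apart from Axl and Mitf, 710 of 16135 genes tested passed an edgeR adjusted p under 0.05 with an absolute log2 fold change over 1, which is 4.4% of all genes tested. Of these, 560 (3.47%) were higher and 150 (0.93%) lower in the Axl-high tumours. TPM ranges of the 2 classes did not overlap for 76 genes, 0.471% of those tested. The median log2 fold change over all genes was -0.12 (-0.08 with DESeq2-type size factors), and each list median below is to be read against it. Unadjusted p was under 0.05 for 3971 genes. The counts of list members below are to be read against 3.47% of all genes called higher and 0.93% called lower, and 1 call in a list of 4 to 10 genes is given as a value of that gene and not of the list. With the keratinocyte, fibroblast and macrophage scores in the model no member of any list was called.

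The count depended on single tumours and on what the model held. It was 566 without ΔEcad male 7 and 1515 without ΔEcad male 7 and ΔEcad female 3, and 490 and 594 of the 710 genes were among them. Leaving out 1 tumour gave 318 without ΔEcad female 2, 321 without Ecad female 8, 335 without Ecad male 7, 355 without Ecad male 6, 391 without Ecad male 5 and 418 without Ecad female 3. It gave 431 without ΔEcad female 4, 444 without ΔEcad female 7, 459 without Ecad female 1 and 1446 without ΔEcad female 3. With sex and genotype in the model 243 genes were called, and with the melanocytic score 172. With keratinocyte, fibroblast and macrophage scores in the model 4 genes were called, all lower in Axl-high tumours: Osbpl6, Tbc1d16, Npnt and Inpp4b.

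**Figure D3:**
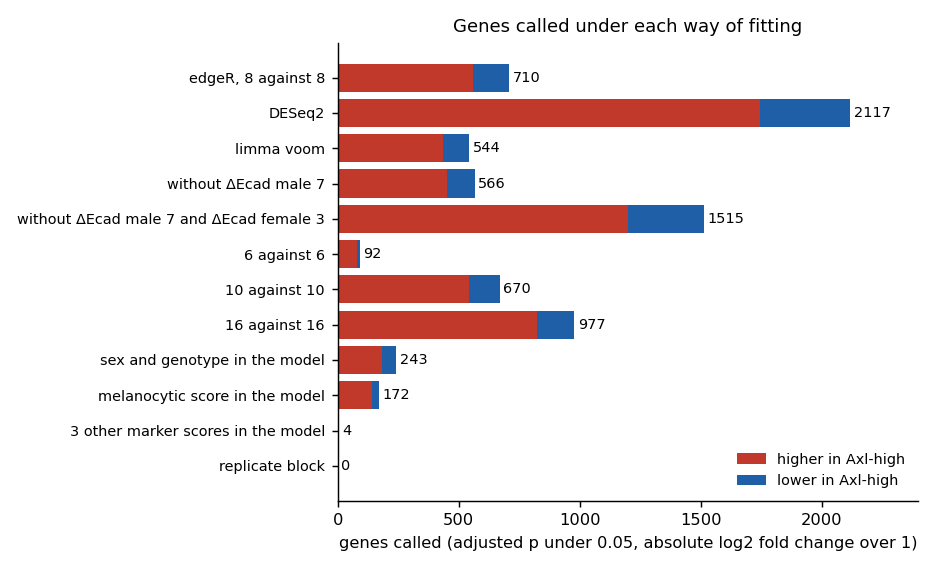
Genes called higher (red) and lower (blue) in the Axl-high tumours under each way of fitting the same counts, with the total beside each bar. The total runs from 0 with a replicate block to 2117 with DESeq2, around 710 for the edgeR comparison of 8 against 8 tumours.

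The 10 named genes with the smallest p among those higher in Axl-high tumours included secreted proteins, surface proteins and transcription factors. Htra3, a secreted serine protease, was at 25.3, 54.8 and 79.1 TPM (lowest, median, highest) in Axl-high and 4.36, 6.7 and 13.5 TPM in Mitf-high tumours. The classes did not overlap, a rise of 2.67 on the log2 scale (SE 0.32, edgeR adjusted p = 0.00205). S100a11, a calcium-binding protein, was at 1189.9, 1586.1 and 2403.4 TPM against 180.9, 345.4 and 735.5 TPM, again without overlap, a log2 change of 2.07 (SE 0.25, edgeR adjusted p = 0.00205). Sema3c, a secreted guidance protein, was at 5.24, 8.81 and 17.9 TPM against 0.51, 1.17 and 2.26 TPM, a log2 change of 2.86 (SE 0.36, edgeR adjusted p = 0.00214). These 3 genes kept their call without ΔEcad male 7, with sex and genotype in the model and with the melanocytic score in it, and lost it with the 3 other marker scores, at edgeR adjusted p = 0.18, 0.606 and 0.418.

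Twist1, a basic helix-loop-helix factor of neural crest and mesenchyme that drives epithelial-mesenchymal transition, followed. It was at 12.5, 34.4 and 166.1 TPM in Axl-high and 0.52, 1.56 and 8.42 TPM in Mitf-high tumours. All 8 Axl-high tumours lay above all 8 others, a rise of 4.21 on the log2 scale (SE 0.63, edgeR adjusted p = 0.00912). Tbx15, a T-box factor of dermal and skeletal mesenchyme, was at 5.42, 28.1 and 85.0 TPM against 0.72, 1.54 and 6.64 TPM, with 7 of 8 Axl-high tumours above every Mitf-high one (log2 change 3.58, SE 0.55, edgeR adjusted p = 0.00912). Atf5, a stress-response factor whose exons overlap Il4i1 and Nup62 and whose counts are therefore uncertain, was at 155.8, 224.6 and 391.2 TPM against 50, 86.9 and 93.8 TPM (log2 change 1.43, SE 0.22, edgeR adjusted p = 0.00912).

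Sdc1, the heparan sulphate proteoglycan syndecan, was at 57.2, 165.0 and 357.4 TPM in Axl-high and 6.06, 19.7 and 62.4 TPM in Mitf-high tumours. Its log2 change was 2.77 (SE 0.43), that of B4galnt1, a ganglioside synthase whose exons overlap Slc26a10, was 2.7 (SE 0.39), and that of Ptgfrn, a membrane partner of tetraspanins, was 2.0 (SE 0.31), each at edgeR adjusted p = 0.00912. In each of the 3 genes, 7 of 8 Axl-high tumours lay above all Mitf-high tumours. Dpysl4, a cytosolic protein of the collapsin response family, was at 0.12, 0.56 and 7.5 TPM against 3 or fewer counts in all 8 Mitf-high tumours. It passed at the same adjusted p, but it entered the test only through its counts in the Axl-high tumours. Its p and its lack of overlap were therefore largely fixed by the low-count filter. Its fitted fold change depends on the prior count and is not quoted.

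The 10 genes with the smallest p among those lower in Axl-high tumours are given next, and none of the melanin synthesis list was among them. Dusp6, a phosphatase that shuts off ERK, was at 99.7, 151.2 and 276.1 TPM in Axl-high and 286.5, 444.3 and 583.6 TPM in Mitf-high tumours. It was the only one of the 10 without overlap, and its log2 change was -1.67 (SE 0.27, edgeR adjusted p = 0.0112). Osbpl6, an oxysterol-binding protein, was at 7.95, 13.9 and 34.3 TPM against 24.8, 80.4 and 325.4 TPM (log2 change -2.92, SE 0.44, edgeR adjusted p = 0.00912). With the 3 marker scores in the model it stood at -4.01 on the log2 scale (edgeR adjusted p = 0.0342).

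Nfatc2, a calcineurin-dependent transcription factor, was at 8.16, 33.1 and 55.8 TPM in Axl-high and 42.1, 124.9 and 301.4 TPM in Mitf-high tumours (log2 change -2.15, SE 0.36, edgeR adjusted p = 0.0117). Tbc1d16, a Rab GTPase-activating protein whose exons overlap Gm26888, was at 6.6, 8.0 and 17.1 TPM against 4.3, 33.5 and 112.3 TPM (log2 change -2.21, SE 0.38, edgeR adjusted p = 0.0117). The lowest Tbc1d16 of the 16 tumours was in a Mitf-high one, ΔEcad male 1. Oxct1, an enzyme of ketone body use whose exons overlap BC037032, was at 82.7, 141.3 and 285.5 TPM against 208.0, 690.6 and 1471.8 TPM (log2 change -1.96, SE 0.38, edgeR adjusted p = 0.0169).

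The other 5 were lower by -1.28 to -1.97 on the log2 scale: Rassf3, a RAS-association domain protein, at -1.97, Cdk5rap2, a centrosomal protein that overlaps Ywhaq-ps3, at -1.74, Pygo1, a Wnt coactivator, at -1.6, Kif3a, a kinesin motor subunit, at -1.43, and Iqgap1, a cytoskeletal scaffold that overlaps Gm44649, at -1.28. Their edgeR adjusted p lay between 0.00912 and 0.0166. In Iqgap1 the overlap came from 1 tumour: ΔEcad male 1, at 49.5 TPM, lay inside the Axl-high range of 49.1 to 120.5 TPM, and the other 7 Mitf-high tumours lay above it. Npnt, an integrin-binding matrix protein, and Inpp4b, a phosphoinositide phosphatase, fell outside the 10 and are named because they were 2 of the 4 genes called with 3 marker scores in the model. Their log2 changes there were -5.62 and -4.04 (edgeR adjusted p = 0.0283 for both), against -3.27 and -2.5 without the scores. All 20 genes were also called with sex and genotype in the model and with the melanocytic score in it.

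**Figure D4:**
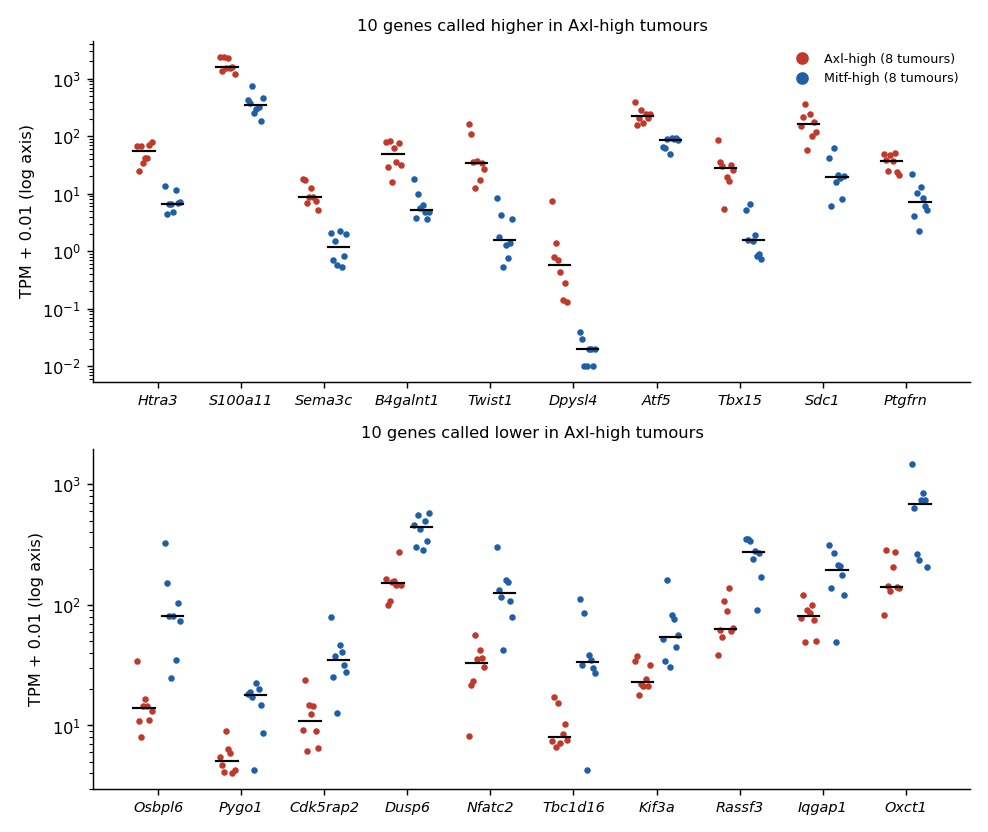
TPM + 0.01 (log axes) of the 10 named genes higher (top) and the 10 lower (bottom) in Axl-high tumours, 1 point per tumour and a bar at the median of each class of 8. Htra3, S100a11, Sema3c, Twist1, Dpysl4, Atf5 and Dusp6 are the genes whose classes do not overlap. Dpysl4 passed the low-count filter only through the Axl-high tumours.

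MITF binds the E-box CATGTG or CACGTG in promoters of pigment genes. The 250 bases before the RefSeq start of 2 of them are shown, with the CATGTG and its reverse complement in capitals. Whether MITF acts on them in these tumours was not tested. Tyr, the rate-limiting enzyme of melanin synthesis, lies on the minus strand at chr7:87493513-87493762, and Dct, the next enzyme, on the minus strand at chr14:118052247-118052496 (GRCm38.p6, RefSeq, 5′ to 3′).
Tyr: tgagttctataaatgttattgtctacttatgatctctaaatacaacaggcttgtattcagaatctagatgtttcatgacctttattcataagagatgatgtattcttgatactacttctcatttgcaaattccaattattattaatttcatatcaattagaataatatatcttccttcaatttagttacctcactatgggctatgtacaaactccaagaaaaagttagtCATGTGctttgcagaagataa
Dct: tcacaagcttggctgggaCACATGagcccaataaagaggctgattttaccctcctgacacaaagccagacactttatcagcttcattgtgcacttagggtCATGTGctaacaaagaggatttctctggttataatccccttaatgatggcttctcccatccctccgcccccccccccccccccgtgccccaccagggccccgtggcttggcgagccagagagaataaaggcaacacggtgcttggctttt

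CATGTG, searched on both strands, was in 6 of the 9 melanin list genes with a promoter in the table (66.7%) and in 9.63% of 11728 tested genes with one. CACGTG was in 3 of the 9 and in 9.38% of the tested genes. Among the called genes with a promoter, CATGTG was in 14 of 117 lower genes (12.0%) and 32 of 391 higher genes (8.18%). The AP-1 motif TGANTCA was in 39 of the 391 higher genes (9.97%), 10 of the 117 lower genes (8.55%) and 6.18% of the tested genes. A match is a run of letters and not a binding site. S100a11 is shown as the most abundant of the 10 higher genes, with TGANTCA and CACGTG in capitals (plus strand, chr3:93520246-93520495, GRCm38.p6, RefSeq).
S100a11: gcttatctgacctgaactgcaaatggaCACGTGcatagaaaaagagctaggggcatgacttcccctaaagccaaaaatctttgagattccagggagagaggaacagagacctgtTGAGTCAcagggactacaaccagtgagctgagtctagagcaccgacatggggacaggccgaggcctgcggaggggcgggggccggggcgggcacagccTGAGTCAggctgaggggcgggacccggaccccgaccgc

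Pigment genes were lower in sign and none passed. All 14 members of the melanin synthesis and melanosome list had negative fold changes, with a median of -1.45 against -0.12 for all genes, and 0 of 14 were called. Tyr was at 0.11, 274.8 and 808.8 TPM in Axl-high and 209.4, 1172.9 and 1807.8 TPM in Mitf-high tumours (log2 change -1.78, SE 0.8, edgeR adjusted p = 0.181). Dct was at 4.98, 5820.4 and 22378.1 TPM against 13167.9, 22829.4 and 50656.3 TPM (-1.85, SE 0.86, edgeR adjusted p = 0.196). Rab27a, which carries melanosomes to the cell edge, came nearest to the threshold at -1.55 (SE 0.47, edgeR adjusted p = 0.0615), while Tyrp1 was at -0.68 (SE 1.03, edgeR adjusted p = 0.704). The lowest values belonged to ΔEcad male 7, and without it the list median was -1.27 with 1 of 14 called, Rab27a. With the melanocytic score in the model the median was -0.56. That score contains Pmel, Mlana, Tyr, Tyrp1 and Dct of this same list, so a smaller median was built into that model. The pigmentation list of the study, Mlana, Trpm1, Dct and Tyr after Mitf was set aside, had 0 of 4 called and a median of -1.81.

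Among melanocyte lineage factors 1 of 10 rose, 1 fell and 8 did not pass. Sox9, a neural crest and melanocyte precursor factor, was at 2.79, 21.8 and 37.1 TPM in Axl-high and 0.55, 2.76 and 9.78 TPM in Mitf-high tumours (log2 change 2.31, SE 0.59, edgeR adjusted p = 0.0357). Sox5, another SOX factor of the lineage whose exons overlap Sox5os1, was at 1.6, 3.63 and 6.82 TPM against 1.88, 10.8 and 20.8 TPM (-1.56, SE 0.31, edgeR adjusted p = 0.0172). Sox9 lost its call without ΔEcad male 7 (edgeR adjusted p = 0.0558) and with sex and genotype in the model (0.0898). Without ΔEcad male 7 the called members were Pax3 and Sox5, both lower. With that tumour Pax3 was at -1.56 and did not pass (SE 0.676, edgeR adjusted p = 0.169). Sox10, the master factor of the lineage, was at 0.49, 548.5 and 1532.5 TPM against 414.1, 983.6 and 1424.3 TPM, a change of -0.75 that did not pass (SE 0.7, edgeR adjusted p = 0.517), and the endothelin receptor Ednrb was at -2.74 (SE 0.79, edgeR adjusted p = 0.0547). Of the MITF relatives, Tfeb, Tfe3 and Tfec, 0 of 3 passed.

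Of 4 TAM receptors and ligands other than Axl, Gas6 rose and 3 did not pass. Gas6, the ligand of AXL, whose exons overlap Tmem255b, was at 179.2, 309.6 and 540.1 TPM in Axl-high and 21.1, 88.9 and 238.4 TPM in Mitf-high tumours. Of the 8 Axl-high tumours 6 lay above every Mitf-high one, and the log2 change was 1.56 (SE 0.43, edgeR adjusted p = 0.0484). The call was lost without ΔEcad male 7 (edgeR adjusted p = 0.0548) and with sex and genotype in the model (0.0783). Tyro3 was at -1.07 (SE 0.55, edgeR adjusted p = 0.243), Mertk at -0.08 (SE 0.73, edgeR adjusted p = 0.956), and Pros1, the ligand protein S, at -0.43 (SE 0.42, edgeR adjusted p = 0.546).

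Of 8 receptors linked to dedifferentiated melanoma, 4 rose and 0 fell, with a list median of 2.08. Egfr, the epidermal growth factor receptor, was at 1.35, 11 and 27.7 TPM in Axl-high and 0.34, 1.37 and 4.69 TPM in Mitf-high tumours, 7 of 8 lying above the Mitf-high range (log2 change 2.57, SE 0.53, edgeR adjusted p = 0.0179). Fgfr1, a fibroblast growth factor receptor that overlaps Gm16159, was at 25.4, 68.8 and 161.3 TPM against 2.02, 15.9 and 45.0 TPM (2.13, SE 0.4, edgeR adjusted p = 0.0148). Egfr and Fgfr1 kept their call without ΔEcad male 7 and with sex and genotype in the model. With the keratinocyte, fibroblast and macrophage scores in the model 0 of the 8 receptors were called and the list median was 1.12. Pdgfra is itself part of the fibroblast score. Epha2, an ephrin receptor, was at 2.04 (SE 0.52, edgeR adjusted p = 0.0364), and Pdgfra, a receptor of fibroblasts that overlaps Gm42802, at 3.56 (SE 0.85, edgeR adjusted p = 0.0293). Both lost the call without ΔEcad male 7 (edgeR adjusted p = 0.0569 and 0.0522) and with sex and genotype in the model (0.082 and 0.152). Met, the receptor of hepatocyte growth factor, went the other way at -1.73 without passing (SE 0.52, edgeR adjusted p = 0.0629), and Ngfr, the neural crest receptor, was at 1.19 (SE 1.0, edgeR adjusted p = 0.469).

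Of 6 transcription factors of epithelial-mesenchymal transition, Twist1 and Snai1 rose, 0 fell and 4 did not pass, with a median of 2.53. Snai1, a repressor of E-cadherin, was at 8.36, 23.9 and 532.7 TPM in Axl-high and 1.11, 3.49 and 25.6 TPM in Mitf-high tumours, with the highest value in ΔEcad female 3 (log2 change 3.63, SE 0.89, edgeR adjusted p = 0.0326). Without ΔEcad male 7 and ΔEcad female 3 it did not pass (edgeR adjusted p = 0.0935), nor with sex and genotype in the model (0.0693). Zeb1 and Zeb2, whose switch is tied to melanoma state, were at 0.06 (SE 0.37, edgeR adjusted p = 0.94) and -0.71 (SE 0.41, edgeR adjusted p = 0.295). Twist2 was at 3.6 (SE 1.05, edgeR adjusted p = 0.0556) and Snai2 at 1.46 (SE 0.56, edgeR adjusted p = 0.121).

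None of 5 cadherins passed. Cdh1, E-cadherin, was at 0.17, 146.8 and 281.9 TPM in Axl-high and 4.27, 20.8 and 151.2 TPM in Mitf-high tumours (log2 change 1.36, SE 0.99, edgeR adjusted p = 0.403). Keratinocytes make E-cadherin, and their summed markers stood at a median of 8028.3 against 12.4 TPM in the same classes; their part in the Cdh1 values was not tested. Cdh2, N-cadherin, was at -0.39 (SE 0.57, edgeR adjusted p = 0.691) and Cdh3, P-cadherin, at 3.71 (SE 1.05, edgeR adjusted p = 0.051), which passed without ΔEcad male 7. Grpr, the gastrin-releasing peptide receptor that the study turns on, was filtered as too low for the class comparison. It was at 0.0, 1.84 and 262.9 TPM in Axl-high and 0.0, 0.01 and 117.4 TPM in Mitf-high tumours, with 2 and 5 tumours at 3 or fewer counts. The highest values were in ΔEcad female 3 and ΔEcad female 4. By labelled group Grpr averaged 88.9 TPM in ΔEcad females, 0.974 in ΔEcad males, 0.0725 in Ecad females and 0.0737 in Ecad males. The Axl-high class held 3 ΔEcad females and the Mitf-high class 1.

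In matrix genes 2 of 13 rose, 0 fell and 11 did not pass (median 1.64). Col6a1 and Col6a2, chains of collagen VI, were at 2.52 (SE 0.6, edgeR adjusted p = 0.0293) and 2.28 (SE 0.62, edgeR adjusted p = 0.0435). Col6a2 did not pass without ΔEcad male 7 (edgeR adjusted p = 0.0659), and neither passed with sex and genotype in the model (0.0692 and 0.0916). In the TGF-beta pathway 1 of 10 rose: Tgfbi, a matrix protein induced by TGF-beta, was at 149.2, 262.5 and 1155.6 TPM against 6.54, 40.5 and 273.4 TPM (2.37, SE 0.61, edgeR adjusted p = 0.0378). It did not pass without ΔEcad male 7 (edgeR adjusted p = 0.0663) or with sex and genotype in the model (0.116). Fibroblast markers Pdgfra and Dpt were called in the same comparison, 2 of 7 with a median of 2.21, and Dpt, a dermal matrix protein, was at 3.87 (SE 0.84, edgeR adjusted p = 0.0201).

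Of 8 YAP targets Ajuba alone passed, and of 8 AP-1 subunits 0 passed. Ajuba, a LIM protein of the Hippo pathway, was at 16.4, 36.9 and 79.2 TPM in Axl-high and 4.7, 16.6 and 22.9 TPM in Mitf-high tumours (log2 change 1.34, SE 0.32, edgeR adjusted p = 0.0291, and 0.0602 with sex and genotype in the model). Ccn1 and Ccn2, the classic YAP-induced matrix proteins, were at 1.54 (SE 0.63, edgeR adjusted p = 0.145) and 0.7 (SE 0.64, edgeR adjusted p = 0.509). Fosl1, an AP-1 subunit of invasive melanoma, was at 1.75 (SE 0.87, edgeR adjusted p = 0.224) and Fos at -1.67 (SE 0.51, edgeR adjusted p = 0.0629), so the AP-1 list had a median of 0.05.

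With all 16 tumours, the study's published cell-state lists did not pass in any member. After Axl was set aside, the invasive list (Ccn1, Tcf4, Loxl2, Tnc and Wnt5a) had a median of 0.93 and 0 of 5 called. Wnt5a was at 5.76, 8.04 and 32.6 TPM in Axl-high and 0.02, 0.855 and 38.1 TPM in Mitf-high tumours (log2 change 0.93, SE 1.0, edgeR adjusted p = 0.581). Its highest value among the 16 tumours was in a Mitf-high one. The neural crest-like list had 0 of 6 called (median 1.28, with Gfra2 at 2.81 and edgeR adjusted p = 0.0737), and the starved-like list 0 of 5 (median 1.02). Without ΔEcad male 7, Dlx5 was called higher and Pax3 lower in the starved-like list, and no member of the other lists was called. Without ΔEcad female 3 as well, Trim67 of the starved-like and Aqp1 of the neural crest-like list were also called higher.

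Stress and immune genes stayed mostly under the threshold. In the ATF4 stress list 1 of 7 rose, Trib3, a pseudokinase induced by ATF4 and CHOP, at 6.54, 19.2 and 67.8 TPM against 2.57, 5.5 and 11.3 TPM (log2 change 1.86, SE 0.48, edgeR adjusted p = 0.0368, and 0.0777 with sex and genotype in the model). Atf4 was at -0.36 (SE 0.37, edgeR adjusted p = 0.569) and Chac1 at 2.34 (SE 0.67, edgeR adjusted p = 0.0522). All 9 interferon and MHC class I genes were higher in sign with a median of 1.71, and 0 of 9 were called, with Tap1 nearest at 2.17 (SE 0.63, edgeR adjusted p = 0.0548). Without ΔEcad male 7 and ΔEcad female 3 their median was 2.05, and 4 were called higher: Isg15, Irf7, H2-K1 and Tap1. Of 9 inflammation genes 0 passed, with 5 higher and 4 lower in sign and a median of 0.4. Il1b and Cxcl2 were at -3.76 and -3.58 with SEs of 1.74 and 1.83. The list summed to 180.8, 344.3 and 529.8 TPM in Axl-high and 66.7, 106.8 and 2436.4 TPM in Mitf-high tumours. That highest sum was in Ecad female 4.

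No proliferation or hypoxia gene passed. The 12 cell cycle genes split 6 and 6 in sign with 0 called, and Mki67 was at 4.85, 11.3 and 91.6 TPM in Axl-high and 6.49, 32.6 and 91.4 TPM in Mitf-high tumours (log2 change -0.59, SE 0.6, edgeR adjusted p = 0.561). Their sum was highest in ΔEcad female 3, at 1725.2 TPM against an Axl-high median of 289.0 and a Mitf-high median of 531.6 TPM. Without ΔEcad male 7 and ΔEcad female 3 the list median was -1.06, and Bub1 and Mcm2 were called lower. The 10 hypoxia and glycolysis genes had a median of 0.18, 8 of them higher in sign, with 0 called, and Ndrg1 was nearest at 1.73 (SE 0.53, edgeR adjusted p = 0.0635). Without the same 2 tumours, Ndrg1 and Egln3 were called higher. Among Schwann cell markers, Mbp, a myelin protein, was at 0.68, 8.82 and 18.0 TPM in Axl-high and 0.2, 0.845 and 3.12 TPM in Mitf-high tumours (log2 change 2.61, SE 0.65, edgeR adjusted p = 0.0338). Prx, a myelin sheath protein that overlaps Gm15541, was at 1.28 (SE 0.34, edgeR adjusted p = 0.0399), while Pmp22 and Cnp, which are not confined to glia, were at 0.03 and -0.13 without passing. The calls of Mbp and Prx were lost with sex and genotype in the model (edgeR adjusted p = 0.0679 and 0.0807), and that of Prx also without ΔEcad male 7 (0.0529).

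**Figure D5:**
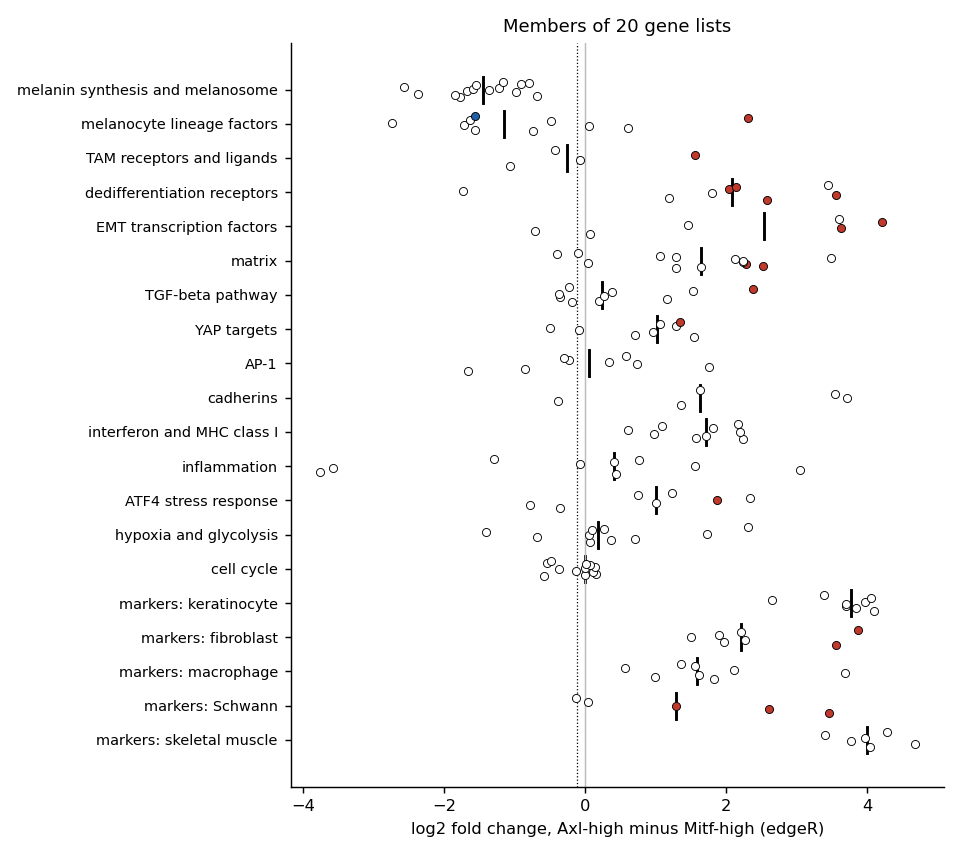
Log2 fold change (Axl-high minus Mitf-high, edgeR) of every tested member of 20 lists. Red and blue points passed the test as higher and lower, open points did not, the bars are list medians and the dotted line is the median of all genes, -0.12. All 14 melanin genes lie left of 0 with none called, and 4 of 8 receptors are called higher.

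The 16 tumours between the classes give the same measure in samples that the comparison did not use. Over their scores, from -2.30 to 0.32, edgeR called 0 genes of 15978 at an adjusted p under 0.05, with 1210 at an unadjusted p under 0.05, and DESeq2 called 34. Of the genes higher in Axl-high tumours, 418 of 536 tested (78.0%) had a positive slope, against 46.3% of all genes. Of the lower genes, 106 of 149 (71.1%) had a negative slope, against 53.7% of all genes. Genes of 1 tumour are not independent, and the keratinocyte list also had a median slope of 0.82 there, so these shares are a description. Not all leading genes followed: Twist1 had a slope of -0.29 and Osbpl6 one of 0.0, while Htra3 was at 0.33 and Cdk5rap2 at -0.93.

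With all 32 tumours and the 4 labelled groups held in the model, 686 of 17715 genes (3.87%) followed the score at an edgeR adjusted p under 0.05, of which 513 rose with it. Without ΔEcad male 7 that count was 105, and without ΔEcad male 2 it was 681. Entered as separate terms, Axl was called for 1544 genes (8.72%), of which 592 rose and 952 fell with it, and Mitf for 145 (0.819%). Without ΔEcad male 7 the counts were 747 and 181, and without ΔEcad male 2 they were 1549 and 242. The Axl term held 8 of 13 matrix genes, 4 of 6 EMT factors (Twist1, Twist2, Snai1 and Snai2) and 5 of 8 receptors, which rose with Axl. The receptors were Egfr, Pdgfra, Pdgfrb, Fgfr1 and Ror2. Also rising were 4 of 7 fibroblast markers (Pdgfra, Col1a1, Col1a2 and Col3a1) and 1 of 8 macrophage markers (Csf1r). These counts are to be read against 592 of 17715 genes that rose with Axl. Of 14 melanin genes 3 fell (Dct, Rab27a and Rab38). Without ΔEcad male 7, the tumour with the highest Axl, the Axl term held 5 matrix genes (Col6a1, Col6a2, Thbs1, Thbs2 and Lox), Twist1 and Snai1. It also held the receptors Pdgfra, Pdgfrb and Ror2, the fibroblast markers Pdgfra, Col1a2 and Col3a1, and Dct and Rab38. Csf1r was then not called.

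Per unit of log2 Axl, with Mitf and the groups held, Pdgfra rose by 0.98 (edgeR adjusted p = 0.000122), Twist1 by 0.92 (0.00132) and B4galnt1 by 0.48 (0.00577). Without ΔEcad male 7 these slopes were 0.85 (0.00923), 0.9 (0.0214) and 0.57 (0.0101). Per unit of log2 Mitf, Cdk5rap2 rose by 0.6 and Inpp4b by 0.82 (edgeR adjusted p = 0.00581 for both), and by 0.68 (0.00508) and 0.89 (0.00886) without that tumour. Tbc1d16 rose by 0.49 (0.0337) and Rab27a, the only melanin gene called for Mitf, by 0.52 (0.0466), and both lost the call without it (0.0558 and 0.0626). S100a11 was called in both terms, at 0.28 per unit of Axl (edgeR adjusted p = 0.0362) and -0.4 per unit of Mitf (0.0348), and stayed so without ΔEcad male 7 (0.0283 and 0.0248). For differences in slope on the score between the sexes or the genotypes, edgeR called 0 genes in either interaction, with 507 and 780 genes at an unadjusted p under 0.05.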

How the data were processed

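RNA of 32 primary tumours was sequenced from stranded polyA libraries. The authors aligned reads with STAR to mm10 (GRCm38) with GENCODE M13 and deposited raw counts per gene, and TPM values scaled for transcript length and library size; quality control used FastQC 0.11.5, and batch correction with Combat is stated only as used where applicable. Whether counting used strand is not given in the sources used here, so overlapping genes are uncertain. Symbols came from GENCODE M21 (50376 of 50600 identifiers matched).

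Classes were set from the deposited TPM and compared on the deposited counts with edgeR 4.0.16 (TMM scaling, low-count filter, robust quasi-likelihood test, R 4.3.3). Calls needed a p below 0.05 after Benjamini-Hochberg adjustment and an absolute log2 fold change over 1, and slopes at the adjusted p alone. DESeq2 1.42.0, limma 3.58.1, other scalings, class sizes, covariates and left-out tumours were alternatives. The rest used Python 3.11.15 with pandas 2.3.3 and scipy 1.17.1. Total counts were 24036333 to 63923086 per tumour. In simulated counts of 15894 genes the comparison called 92.9% of 99 genes changed by 4 on the log2 scale. It called 48.5% of 97 genes changed by 2, and 7 unchanged genes. Each gene was drawn independently, without differences in cell make-up between tumours, so these rates need not hold for the tumours themselves.

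The members and lists were chosen with earlier results of these data known. Named genes are Axl and Mitf without a test between the classes, the 10 called genes with the lowest p in each direction (predicted genes and receptor segments passed over), called list members with at most 4 others per list, and Cdh1 and Grpr. 1 marker gene is not reported here.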

Additional observations from a re-analysis of the deposited data

Results flagged for a closer look

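In 84 groups of 8 values, 10 held a tumour whose gap to its nearest neighbour was large for the range of its class, where chance gives about 4.2 (1 in 20). Values are log2 CPM unless stated. Of the Axl-high tumours, ΔEcad male 7 had the far highest score, 4.88, a low mean of the melanocytic list, 0.22, and a high mean of the fibroblast list, 10.17. ΔEcad female 3 was far below the other Axl-high tumours in the means of the macrophage (-2.95), dendritic (-3.61), endothelial (-1.67) and red blood (-5.19) lists. Of the Mitf-high tumours, Ecad female 4 was far above the rest in the neutrophil list, at 7.69. ΔEcad male 1 was far below them for Tbc1d16, at 4.24, and Ecad female 1 for Rassf3, at 6.71.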

How the results depend on the processing

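Against 710 genes called, DESeq2 called 2117, the 6 against 6 tumours of most extreme score 92, sex and genotype as covariates 243, the melanocytic score 172, the keratinocyte, fibroblast and macrophage scores 4, and the tumours without ΔEcad male 7 and ΔEcad female 3 (chosen after seeing the data) 1515. Leaving out 1 tumour gave 318 to 1446. Other scalings, filters, class sizes and limma stayed within 1.5 times. Of 39 named called genes, 39 stayed called with DESeq2, 31 without ΔEcad male 7, 25 with sex and genotype and 4 with the 3 marker scores. In the middle tumours DESeq2 called 34 genes against 0 by edgeR. Over 32 tumours the score was called for 2049 genes without the groups in the model and 105 without ΔEcad male 7. The Axl term fell to 747 without ΔEcad male 7, and the Mitf term rose to 242 without ΔEcad male 2. Axl in males turned to -0.44 without ΔEcad male 7. Some uncalled genes were called with the other sign: with DESeq2 Inhba (3.22), Tnfaip3 (1.54) and Ptgs2 (3.12), and without ΔEcad male 7 and ΔEcad female 3 Bub1 (-1.51). The cause was not tested.

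The replicate numbers did not pair the tumours: over 48 same-numbered pairs the correlation of deviations ran from -0.547 to 0.425, and 1 of 32 tumours correlated best with its own number. With the replicate block edgeR called 0 genes, while 1558 had an unadjusted p below 0.05.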
